A study of Mus musculus with 2 samples.

Results

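The 8 genes described here, Gpihbp1, Lpl, Cd36, Fabp4, Fabp5, Pparg, Meox2 and Tcf15, encode proteins that bring fatty acids from blood lipoproteins across the capillary wall, or transcription factors that set their levels in endothelial cells (ECs). They were picked by symbol, each matching 1 of the 32285 genes listed in both libraries. All 8 had UMIs in both libraries.

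Triglyceride in the blood is split at the capillary surface of muscle, heart and fat by lipoprotein lipase, and the freed fatty acids are taken up by the endothelial cell and passed on to the muscle fibre. GPIHBP1 carries the lipase across the capillary cell and holds it on the vessel wall, CD36 takes up fatty acids, and the small binding proteins FABP4 and FABP5 carry them in the cytosol. PPARγ is a nuclear receptor that binds fatty acids, and MEOX2 and TCF15 are transcription factors known as a heterodimer in the endothelium of heart and muscle.

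Single-cell RNA-seq was run on 10x libraries of mononuclear cells from mouse limb muscle, sorted for live cells after red cell lysis. The MVC library came from animals treated with maraviroc, and the DMSO library from animals that received only the solvent DMSO. The mice were aged C57BL/6 animals, and the drug was injected intraperitoneally over some months on the higher-dose and shorter of the study's regimes. The number of mice pooled per library is not given in the sources used here, and both groups share the tissue and the sort. With 1 library per group there is no replicate, so no test was run: each interval below is an exact 95% interval that covers counting error only, and a difference between the libraries cannot be told apart from a difference between the mice or the runs.

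After removal of cells with fewer than 500 genes or over 10% mitochondrial UMIs, 5437 cells of the DMSO library and 5454 of the MVC library remained, with 38748234 and 35518029 UMIs. Median depth was 5802 and 5195 UMIs per cell, and 8 barcodes were shared. Cells were clustered without the 8 genes and without 94 other fatty acid pathway genes, and classes were named from markers. The capillary EC-like class held 1544 DMSO and 1317 MVC cells, with UMIs of all 9 pan-endothelial and all 7 capillary markers in the class as a whole. Those capillary markers summed to 6146 CPM (the class's UMIs of a gene per 1000000 of its UMIs) in DMSO and 4914 CPM in MVC, and Timp4 among them stood at 903 and 535 CPM. All adipocyte markers together gave 14 and 5 UMIs in this class, with Plin1 and Lep at 0 in both libraries.

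The class was made of 4 clusters, each called here by its leading genes, and the largest cluster differed between the 2 libraries. All 7 capillary markers were raised over the median cluster in the Depp1/Sybu cluster, and 5 of the 7 in each of the others. The Fos/Egr1 cluster held 554 DMSO and 425 MVC cells, and the Depp1/Sybu cluster held 299 and 521. The Sgms2/Hmox1 cluster held 460 and 222, and the Fer1l5/Pde4c cluster held 231 and 149. Each ratio for the class is therefore given with its range over these clusters. Erythroid markers summed to 2081 CPM in DMSO and 343 CPM in MVC capillary cells. In the Fos/Egr1 cluster they summed to 6111 and 313 CPM, and in the other 3 clusters to between 15.3 and 25.2 CPM in DMSO and between 234 and 855 CPM in MVC. The MVC to DMSO ratios in the Fos/Egr1 cluster were 0.669 for Gpihbp1, 0.503 for Cd36 and 0.592 for Fabp4, inside the range of the other 3 clusters. Erythroid levels differed in those clusters too, and their bearing on the ratios was not tested.

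Promoter sequences are shown for Cd36, Pparg and Meox2, the 3 of the 8 genes with a window in the RefSeq table used. They set a transcript start of a fatty acid receptor gene beside those of genes for DNA-binding factors. They are RefSeq windows on GRCm38.p6 of 250 bases before to 50 bases after a transcript start, 5′ to 3′ on the gene's strand. The Cd36 window lies inside the annotated gene, whose 5′ end on the minus strand is at base 17888801. The printed Pparg window also lies inside its gene. Capitals mark AGGTCA on either strand, the core site of nuclear receptors, and CANNTG, the E-box bound by bHLH factors such as TCF15.
Cd36, chr5:17835847-17836146, minus strand: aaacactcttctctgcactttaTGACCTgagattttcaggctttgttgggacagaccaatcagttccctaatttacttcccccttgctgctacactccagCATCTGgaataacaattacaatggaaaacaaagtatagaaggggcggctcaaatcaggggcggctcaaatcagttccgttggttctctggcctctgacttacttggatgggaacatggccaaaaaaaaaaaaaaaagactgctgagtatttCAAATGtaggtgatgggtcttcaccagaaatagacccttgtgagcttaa
Pparg, chr6:115362099-115362398, plus strand: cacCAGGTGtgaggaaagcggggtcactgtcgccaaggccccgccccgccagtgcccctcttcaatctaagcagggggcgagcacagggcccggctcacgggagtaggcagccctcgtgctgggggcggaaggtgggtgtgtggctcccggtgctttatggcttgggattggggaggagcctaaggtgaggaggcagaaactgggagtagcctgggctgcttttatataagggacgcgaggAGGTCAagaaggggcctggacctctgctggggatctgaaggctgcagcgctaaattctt
Meox2, chr12:37108290-37108589, plus strand: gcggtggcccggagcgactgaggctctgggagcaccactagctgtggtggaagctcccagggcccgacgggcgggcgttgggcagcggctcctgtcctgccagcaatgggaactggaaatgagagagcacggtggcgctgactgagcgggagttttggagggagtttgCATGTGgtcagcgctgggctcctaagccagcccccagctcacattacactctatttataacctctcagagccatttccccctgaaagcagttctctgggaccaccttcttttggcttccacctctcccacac

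In the Cd36 window AGGTCA lay on the strand opposite to the gene's, so it is printed as TGACCT, with the first printed base at -228, counting the first transcribed base as 1, and E-boxes started at -150 and 2. Pparg has 3 windows, of which the printed one held AGGTCA at -9 and an E-box at -247. The Pparg window starting at base 115360894 held AGGTCA at -28 and no E-box, and the one starting at 115421816 held an E-box at -173 and no AGGTCA. The Meox2 window held an E-box at -82. TAATTA, a core bound by many homeobox factors, was in none of the 5 windows listed for these 3 genes. Over 32817 windows of this length, 16.3% held AGGTCA, 72.3% an E-box and 5.30% TAATTA. The matches describe letters only.

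In the capillary cells of the MVC library Lpl, Cd36 and Fabp4 were each lower by more than 1.5-fold, and Gpihbp1 was lower by less. All 4 of these genes were also lower in each of the 4 clusters. For the class as a whole the ratio was 0.917 for Fabp5, 1.05 for Pparg, 0.925 for Meox2 and 1.45 for Tcf15. Those 4 values depended on the mix of clusters: over single clusters the ratios ran from 0.673 to 0.898 for Fabp5, from 0.807 to 0.975 for Pparg, from 0.633 to 1.01 for Meox2 and from 0.771 to 1.61 for Tcf15. With each cluster given the same share in both libraries, their log2 ratios were -0.30, -0.19, -0.43 and 0.33. The mix bore on other members too. With the same shares the log2 ratio went from -0.37 to -0.55 for Gpihbp1, from -1.39 to -1.56 for Lpl and from -0.80 to -0.96 for Cd36. Among the 8 genes, 3 were lower and 0 higher by at least 1.5-fold, where over all 12462 genes counted in the class (at least 20 UMIs) 6.72% were lower and 15.3% higher. The 8 genes were chosen with earlier results of these data known, so these counts are a description only. The median log2 ratio of MVC to DMSO was -0.24 over the 8 genes and 0.06 over all genes.

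**Figure D1:**
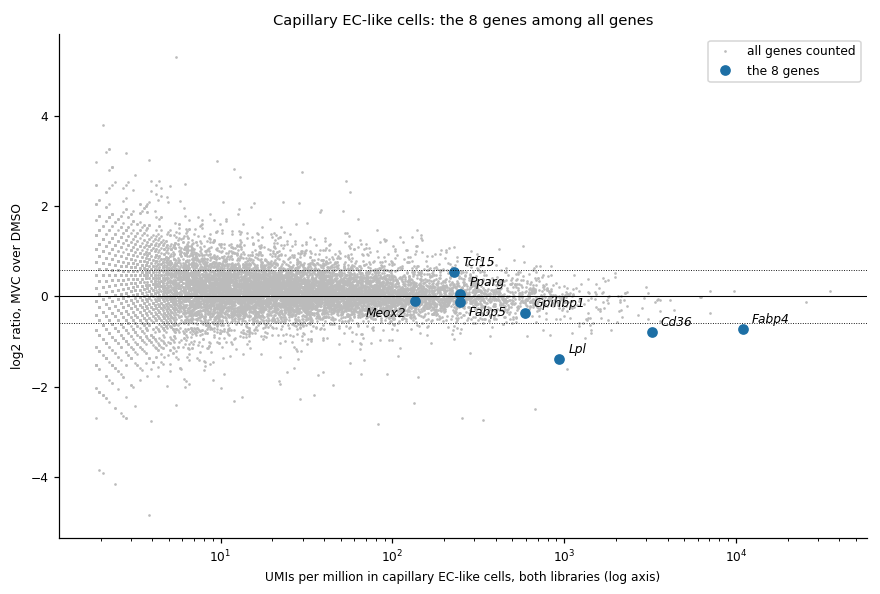
Each grey point is a gene in capillary EC-like cells, with its level in both libraries together on the log x axis (CPM) and its log2 ratio of MVC to DMSO on the y axis. Blue points are the 8 genes, dotted lines mark 1.5-fold, and Lpl, Cd36 and Fabp4 lie below the lower line.

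Gpihbp1, the anchor of the lipase, lies on chr15:75596628-75599481 (GRCm38). In capillary EC-like cells it had 4023 UMIs or 649 CPM in DMSO (Poisson interval 630 to 670) and 2241 UMIs or 502 CPM in MVC (481 to 523), a ratio of 0.773 (0.733 to 0.814). The intervals do not overlap, and 13.2% of all genes in the class had a lower ratio. The ratio ran from 0.516 (0.443 to 0.598) in the Fer1l5/Pde4c cluster to 0.788 (0.723 to 0.858) in the Depp1/Sybu cluster, so every one of the 4 clusters had less Gpihbp1 in MVC.

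Gpihbp1 was the member most tied to the capillary class: 75.7% of all its UMIs in the DMSO library and 71.6% in the MVC library came from those cells. The next classes in DMSO were lymphatic EC-like cells with 188 CPM and arterial EC-like cells with 181 CPM, which did not differ beyond counting error (ratio 1.04, 0.838 to 1.28). In MVC, arterial EC-like cells with 115 CPM, venous with 109 CPM, a mixed pericyte and smooth muscle class with 99.5 CPM (22.3% and 18.0% of whose cells were called doublets) and lymphatic with 91.0 CPM followed one another with each neighbouring ratio's interval including 1. Capillary cells held 3.60 times (3.22 to 4.03) the arterial level in DMSO and 4.36 times (3.76 to 5.08) in MVC. The arterial class was itself uneven. Its cluster led by Rgs5 and Cd300lg held 427 CPM in DMSO and 288 CPM in MVC, and its cluster led by Mgp and Cytl1 held 32.2 and 14.3 CPM.

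Lpl, at chr8:68880491-68907448, encodes lipoprotein lipase. It had the lowest ratio of the 8 genes in capillary cells. It had 7841 UMIs or 1266 CPM (1238 to 1294) in DMSO and 2158 UMIs or 483 CPM (463 to 504) in MVC, a ratio of 0.382 (0.364 to 0.400), and 0.995% of all genes in the class had a lower one. The 4 clusters gave ratios between 0.301 (Depp1/Sybu, 2004 CPM to 602 CPM) and 0.452 (Sgms2/Hmox1, 861 CPM to 389 CPM). The Fos/Egr1 cluster, where the erythroid markers stood high in DMSO, gave a ratio of 0.357 (0.327 to 0.389), inside that range. The bearing of erythroid RNA on the Lpl ratios was not tested.

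Outside the capillaries Lpl was spread over more classes than Gpihbp1. Capillary cells held 53.0% of its UMIs in DMSO but 27.5% in MVC, while FAP-like cells, the fibro-adipogenic progenitors of muscle, held 31.2% and 53.6%. In FAP-like cells the level was 361 CPM in DMSO and 311 CPM in MVC, a ratio of 0.859 (0.824 to 0.896). The gap between capillary and FAP-like cells thus went from 3.5-fold (3.38 to 3.63) in DMSO to 1.56-fold (1.48 to 1.64) in MVC. FAP-like clusters differed: the one led by Thbs4 and Gdf10 went from 454 to 282 CPM, and the one led by Sbsn and Dmkn from 71.7 to 92.3 CPM.

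Arterial EC-like cells had 191 CPM of Lpl in DMSO and 82.1 CPM in MVC, a ratio of 0.431 (0.351 to 0.526). The Rgs5/Cd300lg cluster carried most of it, with 448 and 185 CPM against 35.5 and 21.9 CPM in the Mgp/Cytl1 cluster. Pericyte-like cells had 226 and 142 CPM, a ratio of 0.626 (0.496 to 0.785). Venous EC-like cells had 78.9 and 40.0 CPM, but 3 cells gave 39.4% of those UMIs in DMSO and 32.8% in MVC. With called doublets left out, the venous log2 ratio turned from -0.98 to 0.80. In macrophage-like cells, which are known to make the lipase, Lpl stood at 195 and 137 CPM, with 3 cells giving 50.1% and 33.0% of the UMIs.

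**Figure D2:**
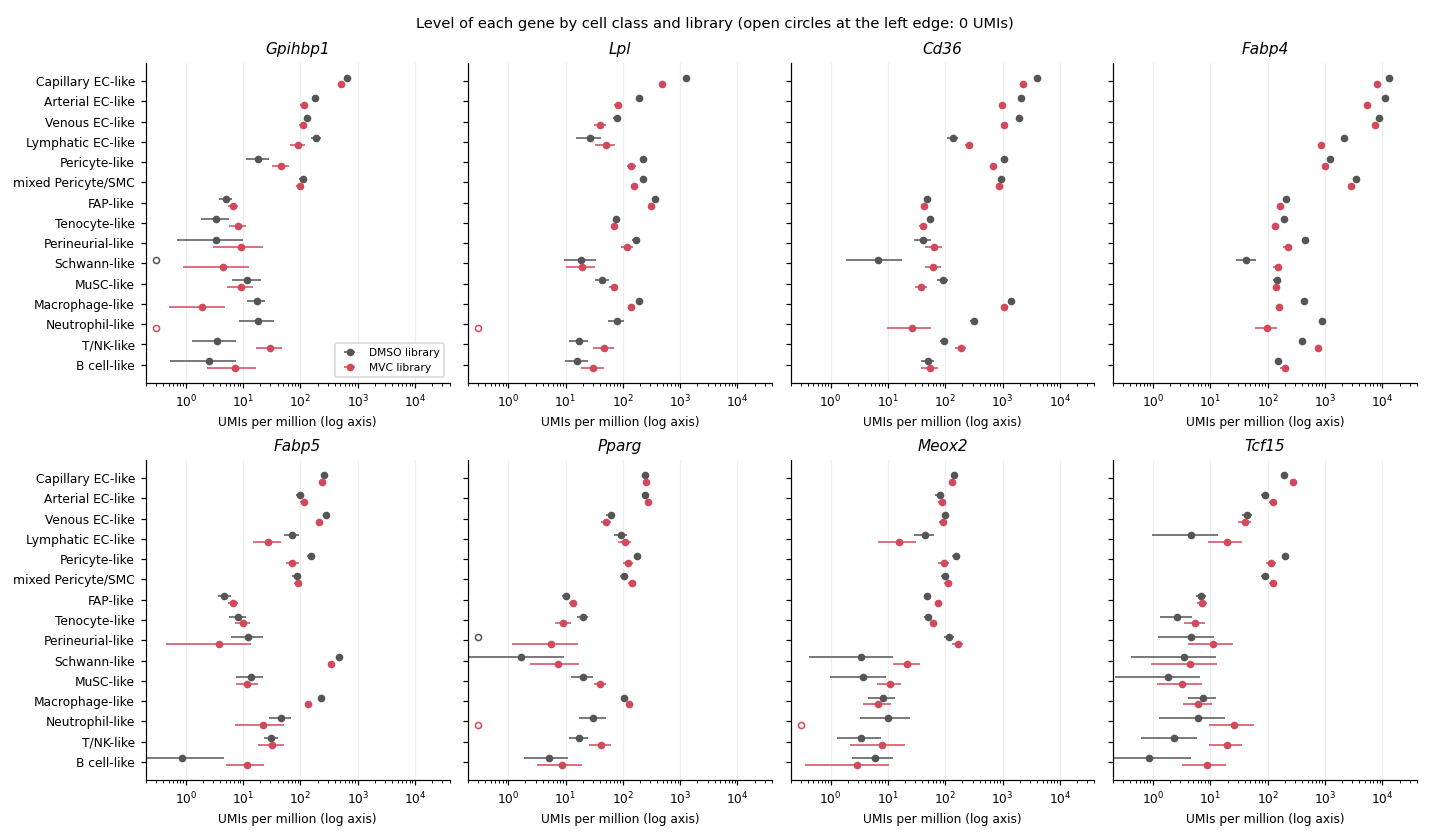
Each panel is 1 gene, with its CPM on a log x axis in 15 cell classes, grey for the DMSO and red for the MVC library, lines being exact 95% Poisson intervals and open circles at the left edge marking 0 UMIs. Gpihbp1 is highest in capillary EC-like cells, Fabp4 is high in all 3 blood EC classes, and Fabp5 is highest in Schwann-like cells.

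Cd36, at chr5:17781690-17888801 on the minus strand, encodes a scavenger receptor that takes up long-chain fatty acids. Capillary EC-like cells held 24306 UMIs or 3924 CPM (3875 to 3974) in DMSO and 10060 UMIs or 2253 CPM (2209 to 2297) in MVC, a ratio of 0.574 (0.561 to 0.588). Ratios in the 4 clusters lay between 0.440 (0.416 to 0.466, Sgms2/Hmox1) and 0.573 (0.552 to 0.595, Depp1/Sybu), so the class as a whole sat at the mild end. Of all genes in the class, 3.88% had a lower ratio.

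Cd36 was also lower in MVC in arterial, venous and pericyte-like cells. It went from 2086 to 974 CPM in arterial EC-like cells (ratio 0.467, 0.441 to 0.495), from 1902 to 1043 CPM in venous EC-like cells (0.549, 0.518 to 0.581) and from 1074 to 690 CPM in pericyte-like cells (0.642, 0.580 to 0.711). Macrophage-like cells, which use CD36 as a scavenger receptor, had 1412 and 1080 CPM, a ratio of 0.765 (0.723 to 0.810). Capillary cells held 1.88 times the arterial level in DMSO and 2.31 times in MVC. Within the arterial class the Rgs5/Cd300lg cluster had 4052 CPM in DMSO, above the capillary class mean, and the Mgp/Cytl1 cluster 902 CPM, and both were lower in MVC by nearly the same ratio (0.474 and 0.468).

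Fabp4 and Fabp5 are neighbours on chromosome 3, at chr3:10204088-10208576 and chr3:10012548-10016607, and encode related fatty acid carriers. Fabp4 had 81607 UMIs or 13174 CPM (13084 to 13265) in DMSO capillary cells and 35487 UMIs or 7947 CPM (7864 to 8030) in MVC, a ratio of 0.603 (0.596 to 0.611). The 4 clusters lay close together, from 0.555 (Fer1l5/Pde4c) to 0.610 (Depp1/Sybu), and 4.73% of genes in the class had a lower ratio. Unlike Gpihbp1 and Lpl, Fabp4 was high in every blood EC class: arterial EC-like cells had 11064 CPM in DMSO and 5392 CPM in MVC, a ratio of 0.487 (0.475 to 0.5), and venous EC-like cells had 8823 and 7347 CPM, a ratio of 0.833 (0.814 to 0.852). Venous cells thus lay below arterial cells in DMSO and above them in MVC.

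In capillary cells Fabp5 had 1588 UMIs or 256 CPM (244 to 269) in DMSO and 1050 UMIs or 235 CPM (221 to 250) in MVC, a ratio of 0.917 (0.848 to 0.992), although the 4 clusters ran lower, from 0.673 (Fer1l5/Pde4c) to 0.898 (Depp1/Sybu). Its order over classes was unlike that of the other members. Schwann-like cells, the glia of peripheral nerve, were highest with 467 CPM in DMSO and 341 CPM in MVC, and their cluster led by Frmd5 and Nav2 had 801 and 752 CPM. Venous and capillary EC-like cells came next and did not differ beyond counting error in either library (venous over capillary 1.07, 0.969 to 1.18, in DMSO, and capillary over venous 1.09, 0.970 to 1.24, in MVC). Fabp5 was lower in MVC in macrophage-like cells (225 and 135 CPM, with 57.6% and 72.9% of UMIs in 3 cells) and in pericyte-like cells (152 and 72.7 CPM, ratio 0.478, 0.348 to 0.648).

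Pparg, at chr6:115360951-115490399, is best known as the regulator of fat cells and also acts in endothelium, where Cd36 and Fabp4 are among its known targets. It had 1509 UMIs or 244 CPM (231 to 256) in DMSO capillary cells and 1137 UMIs or 255 CPM (240 to 270) in MVC, a ratio of 1.05 (0.967 to 1.13). The interval includes 1. All 4 clusters lay below 1, from 0.807 (0.713 to 0.913) in Depp1/Sybu to 0.975 (0.813 to 1.16) in Sgms2/Hmox1. With each cluster given the same share in both libraries, the log2 ratio for the class went from 0.06 to -0.19. The Depp1/Sybu cluster, larger in MVC, held the most Pparg in both libraries, 483 and 390 CPM.

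Over the whole arterial EC-like class Pparg stood at 241 CPM against 244 CPM in capillary cells in DMSO (capillary over arterial 1.01, 0.910 to 1.13), and at 280 against 255 CPM in MVC. That mean joined unlike clusters, with 384 and 483 CPM in Rgs5/Cd300lg and 155 and 162 CPM in Mgp/Cytl1. Venous EC-like cells had 61.1 and 51.3 CPM. Arterial Pparg was 1.16 times as high in MVC (1.02 to 1.33), and the sign turned, to -0.31 on the log2 scale, when each gene was centred within its library before clustering. That setting left 162 DMSO and 140 MVC arterial cells in place of 311 and 289.

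Meox2, at chr12:37108540-37179534, encodes a homeobox factor. Capillary cells had 864 UMIs or 139 CPM (130 to 149) in DMSO and 576 UMIs or 129 CPM (119 to 140) in MVC, a ratio of 0.925 (0.831 to 1.03). Clusters ran from 0.633 (0.537 to 0.747) in Depp1/Sybu to 1.01 (0.764 to 1.32) in Fer1l5/Pde4c. Meox2 had the smallest capillary share of the 8 genes in both libraries. Capillary cells held 33.5% of its UMIs in DMSO and 22.5% in MVC, and FAP-like cells held 23.6% and 39.5%. In FAP-like cells it went from 47.7 to 74.8 CPM, a ratio of 1.57 (1.42 to 1.74), with all 4 FAP-like clusters above 1 (1.25 to 3.07). Scaling by the median ratio over genes shifts every FAP-like log2 ratio down by 0.13 and took this one under 1.5-fold. Perineurial-like cells, the sheath of nerve bundles, had 119 and 166 CPM.

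Tcf15, at chr2:152143561-152149097, encodes a bHLH factor that pairs with MEOX2. It was the one member whose interval in capillary cells lay above 1, going from 1187 UMIs or 192 CPM (181 to 203) to 1239 UMIs or 277 CPM (262 to 293), a ratio of 1.45 (1.34 to 1.57). Of all genes in the class, 82.4% had a lower ratio. The clusters did not share its direction. The ratio was 1.61 (1.40 to 1.86) in Depp1/Sybu, 1.16 (1.0 to 1.34) in Fos/Egr1, 0.999 (0.765 to 1.3) in Fer1l5/Pde4c and 0.771 (0.614 to 0.963) in Sgms2/Hmox1. Arterial EC-like cells had 88.2 CPM in DMSO and 122 CPM in MVC, a ratio of 1.39 (1.12 to 1.71). Pericyte-like cells went the other way, from 203 to 115 CPM (0.567, 0.440 to 0.726), and were level with capillary cells in DMSO.

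**Figure D3:**
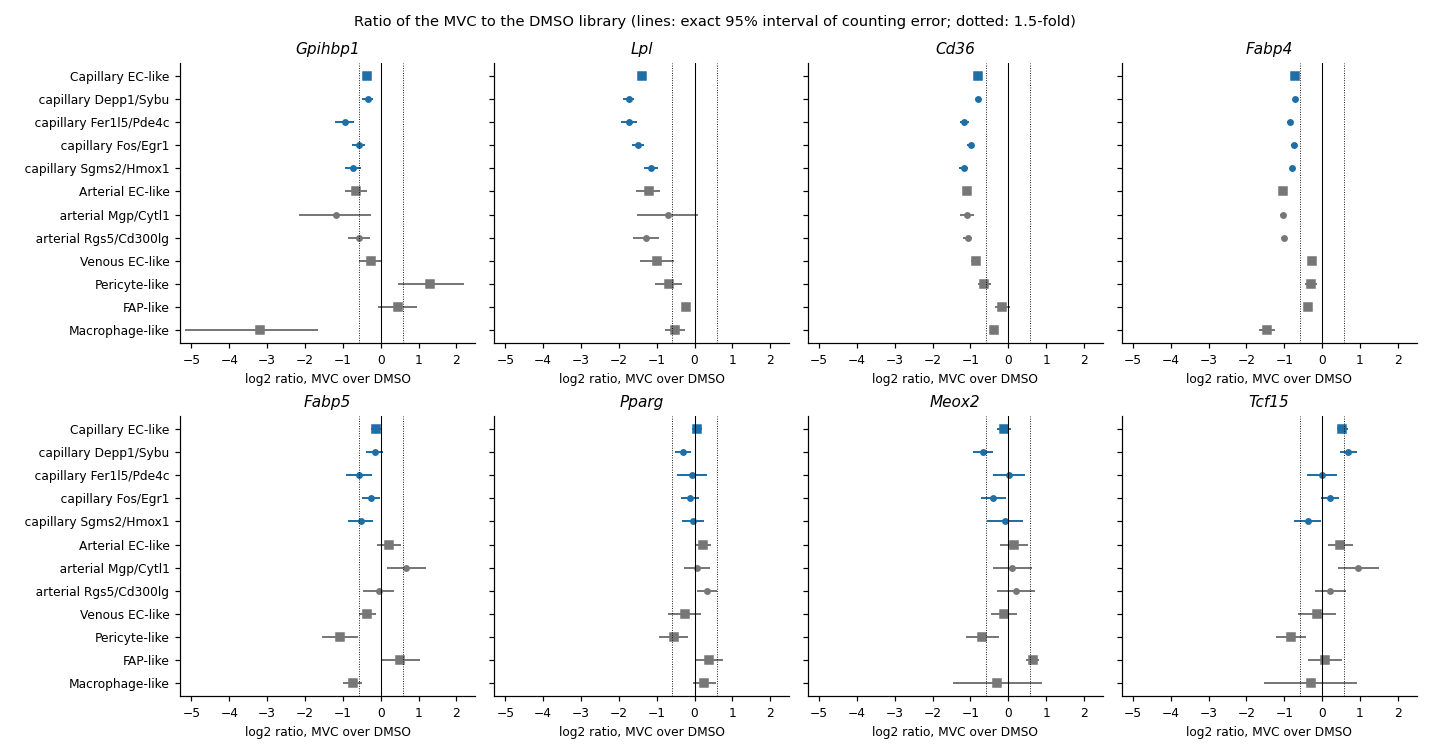
Each panel is 1 gene, with the log2 ratio of the MVC to the DMSO library on the x axis for the capillary EC-like class and its 4 clusters (blue) and for other classes and the 2 arterial clusters (grey). Lines are exact 95% intervals of counting error, dotted lines mark 1.5-fold, and Lpl, Cd36 and Fabp4 lie left of 0 in each capillary cluster while Tcf15 lies on both sides.

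The 8 genes also differed among the capillary clusters in a like manner. Although none of them was used for clustering, all 8 were highest in the Depp1/Sybu cluster in DMSO, and all 8 again in MVC. In DMSO that cluster held 1008 CPM of Gpihbp1, 6062 CPM of Cd36, 383 CPM of Fabp5, 306 CPM of Meox2 and 293 CPM of Tcf15. The Sgms2/Hmox1 cluster held the least of 5 of the 8 genes in DMSO: 522, 176, 70.2 and 147 CPM of Gpihbp1, Fabp5, Meox2 and Tcf15, and 861 CPM of Lpl. Depth differed too: median UMIs in Depp1/Sybu cells were 2934 and 2558, and in Sgms2/Hmox1 cells 4096 and 3976.

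Capillary cells stood above arterial and venous EC-like cells together by at least 1.5-fold in both libraries for 5 of the 8 genes (Gpihbp1, Lpl, Cd36, Pparg and Tcf15), where 17.7% of 11505 genes did so. Lpl was the most contrasted, at 16.1 times (13.7 to 18.9) the venous level in DMSO and 12.1 times (9.48 to 15.7) in MVC. Pparg and Tcf15 were 3.99 and 4.37 times the venous level in DMSO and 4.96 and 6.94 times in MVC. Against arterial cells alone Pparg was 1.01 times as high in DMSO (0.910 to 1.13) and 0.909 times in MVC (0.816 to 1.01). Capillary cells thus exceeded only the venous cells in Pparg. Fabp4 was 1.19 times the arterial level in DMSO and 1.47 times in MVC. Meox2 was 1.40 times the venous level in both libraries.

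The share of cells with a UMI differed most for Lpl. With every cell thinned to 2000 UMIs, which left out 132 DMSO and 309 MVC capillary cells that were shallower, Lpl was seen in 77.8% of DMSO (Clopper-Pearson interval 75.6 to 80.0) and 55.1% of MVC capillary cells (51.9 to 58.2). Unthinned, the shares were 86.5% and 61.0%. Gpihbp1 was seen in 64.1% and 55.2% of thinned cells, and Tcf15 in 27.1% and 37.6%. Fabp5 (31.2% and 31.1%), Pparg (29.96% and 29.1%) and Meox2 (20.3% and 19.0%) kept nearly the same shares over the class, whose mix of clusters differed between the libraries. Within single clusters the point ratios of Fabp5 and Pparg were on the lower side in MVC in each, as given above. For Pparg in the Sgms2/Hmox1 cluster the interval also covered no difference. The Depp1/Sybu cluster, highest for all these genes, gave 55 of the 132 DMSO and 195 of the 309 MVC cells left out. Cd36 and Fabp4 were near saturation at 97.8% and 91.8%, and 99.5% and 98.7%, so their change shows in the mean UMIs of a thinned cell, 8.08 and 4.51 for Cd36 and 26.8 and 16.4 for Fabp4.

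B cell-like cells, which should lack these genes, are given beside the other classes for comparison. Their median depth was 5089 UMIs in DMSO and 5334 in MVC, against 3496 and 3185 in capillary cells. Thinned, 6.90% and 6.59% of them held Fabp4, 1.97% and 3.30% Lpl, 3.45% and 6.59% Cd36, and 0.493% and 2.20% Gpihbp1. Tcf15 was in 0 of 203 thinned DMSO B cell-like cells (at most 1.80%, Clopper-Pearson) and in 3 of 91 in MVC. Few cells carried most of it: 3 gave 65.6% and 81.6% of the Fabp4 UMIs of the B cell-like class, of whose cells 2.91% and 10.4% were called doublets. Per 100 Fabp4 UMIs, B cell-like cells had 32.2 of Cd36 in DMSO and 27.2 in MVC, against 29.8 and 28.3 in capillary cells, so in these cells Cd36 and Fabp4 stood in the capillary ratio. Not every gene did. Lpl stood at 10.4 and 15.4 against 9.61 and 6.08, above the capillary ratio in MVC (2.54 times, 1.57 to 3.89). In DMSO Gpihbp1 (3 UMIs) lay below the capillary ratio and Meox2 (7 UMIs) above it. For Fabp5, Pparg and Tcf15 the intervals included it. The source of these UMIs was not tested. The CPM of Cd36 in FAP-like cells (47.2 and 42.2) was no higher than in B cell-like cells (49.7 and 54.0), and its source was not tested.

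**Figure D4:**
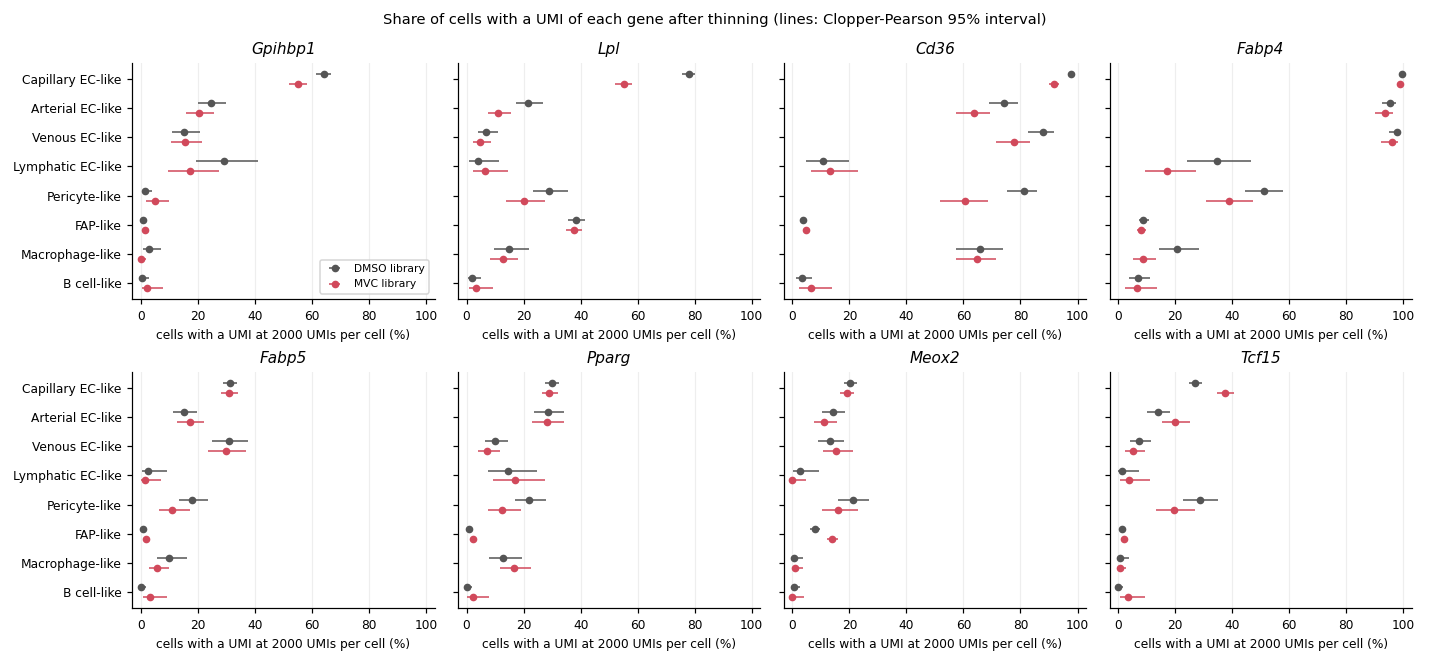
Each panel is 1 gene, with the percentage of cells holding a UMI after thinning to 2000 UMIs per cell on the x axis for 8 classes, grey for DMSO and red for MVC, with Clopper-Pearson 95% intervals. The B cell-like row, a class that should lack these genes, reaches at most 6.90%, and the capillary EC-like row shows Lpl at 77.8% and 55.1%.

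A thinned capillary cell most often showed 4 of the 8 genes, in 29.6% of 1412 DMSO cells and 27.0% of 1008 MVC cells. Cells with 5 of them made up 29.1% and 21.2%, and cells with 3 made up 16.4% and 23.0%. All 8 were seen together in 5 DMSO cells and 9 MVC cells. Pairs were read without Fabp4. They were seen together about as often as their shares would give: the observed share over the product of the 2 shares ran from 0.981 (Gpihbp1 with Pparg) to 1.19 (Pparg with Meox2) in DMSO, and from 0.978 (Fabp5 with Pparg) to 1.22 (Fabp5 with Meox2) in MVC.

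**Figure D5:**
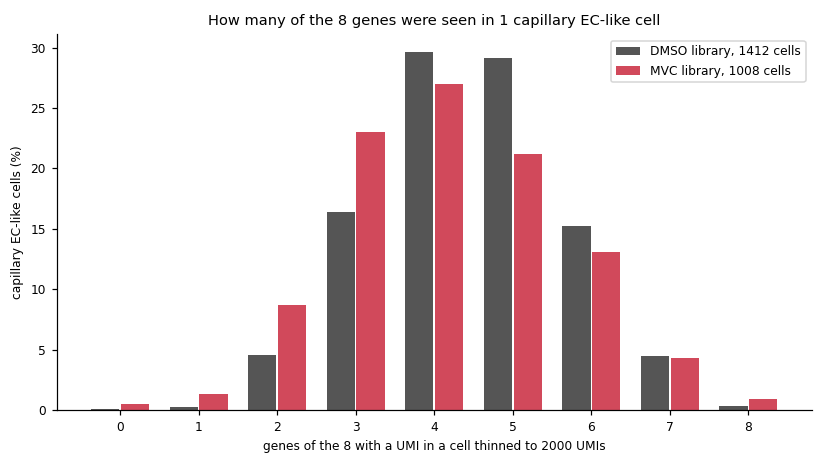
The x axis gives how many of the 8 genes had a UMI in a capillary EC-like cell thinned to 2000 UMIs, and bars give the percentage of cells, grey for 1412 DMSO and red for 1008 MVC cells. Cells with 2 or 3 of the genes take a larger share in MVC, and cells with 4, 5 or 6 a smaller one.

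Beyond the capillaries the same 1.5-fold reading was made in 5 more classes, again only as a description of genes chosen with earlier results of these data known. In arterial EC-like cells 4 of the 8 genes were lower (Gpihbp1, Lpl, Cd36 and Fabp4) and 0 higher, where 6.81% of all genes were lower and 11.7% higher. That class was not sharply apart from the capillary one. Its Rgs5/Cd300lg cluster, with capillary markers among its leading genes, made up 140 of 311 DMSO and 137 of 289 MVC cells. In venous EC-like cells 2 were lower (Lpl and Cd36) and 0 higher, where 14% of genes were lower and 12.4% higher. The arterial share of members lower was above the share over all genes, which was not tested, and the venous one rested on 2 genes, 1 of which turned without doublets.

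In pericyte-like cells, the mural cells of capillaries, 5 of the 8 genes were lower (Lpl, Cd36, Fabp5, Meox2 and Tcf15) and 1 higher (Gpihbp1), where 10.5% of genes were lower and 14.8% higher. These cells held 560 CPM of summed EC markers in DMSO and 727 CPM in MVC, and their part in the result was not tested. The whole pericyte-like class had a median depth of 3772 UMIs in DMSO and 2473 in MVC. In macrophage-like cells 3 were lower (Gpihbp1, Fabp4 and Fabp5) and 0 higher, where 8.63% of genes were lower and 15.4% higher. Summed EC markers in the macrophage-like class went from 409 to 210 CPM, beside Fabp4 at 435 and 158 CPM and Gpihbp1 at 32 and 4 UMIs, and their part was not tested. In FAP-like cells 1 was higher (Meox2) and 0 lower, where 14.8% of genes were higher and 5.19% lower.

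Other genes of the pathway did not move as a body. Of 94 genes in 6 lists, 81 were counted in capillary cells, and 8 were higher and 4 lower in MVC by at least 1.5-fold. Over all genes counted in the class 15.3% were higher and 6.72% lower, so neither list count stood above that share. The median log2 ratio was 0.07 over the list genes and 0.06 over all genes. Among the 8 genes counted for lipolysis at the vessel wall, Angptl4, the secreted inhibitor of lipoprotein lipase, stood at 92.8 CPM in DMSO and 35.2 CPM in MVC, a ratio of 0.379 (0.315 to 0.453), close to that of Lpl itself. Lipg, the endothelial lipase, had 25 and 30 UMIs (ratio 1.66, 0.946 to 2.95), Lmf1, a lipase maturation factor, 16 and 19 UMIs (1.65, 0.802 to 3.42), and Pcsk5, a proprotein convertase, 16 and 22 UMIs (1.91, 0.957 to 3.89). All 3 intervals include 1. Of 13 genes for fatty acid transport and activation 1 was higher, the acyl-CoA synthetase Acsl1, at 25.2 and 37.8 CPM (1.503, 1.20 to 1.88), and 0 were lower. The 4 lipoprotein receptors counted gave 0 in either direction.

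Storage and oxidation genes went both ways. Plin2, which coats lipid droplets, went from 187 to 118 CPM (0.628, 0.566 to 0.697), and Dgat2, a triglyceride synthase, had 50 and 56 UMIs (1.55, 1.04 to 2.32). Among 21 oxidation genes, Cpt1a, which admits fatty acids to mitochondria, had 34.1 and 22.2 CPM (0.651, 0.507 to 0.830), Ucp2 had 46.0 and 29.8 CPM (0.647, 0.523 to 0.798), and Pdk4, which spares glucose, had 15.5 and 24.2 CPM (1.56, 1.17 to 2.08). Of 24 upstream signals and transcription factors 2 were higher and 0 lower, where 15.3% of all genes were higher and 6.72% lower. The 2 were Aplnr, the apelin receptor, at 7.26 and 22.2 CPM (3.05, 2.12 to 4.44), and Ppargc1a, a coactivator of PPARs, with 9 and 17 UMIs (2.62, 1.10 to 6.67). Compared with arterial and venous cells, 16 of 80 list genes were higher in capillary cells by at least 1.5-fold in both libraries and 9 were lower, where 17.7% of all genes were higher and 12% lower.

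Likeness of pattern was read as Pearson's r of log2(CPM + 10) over 15 classes, among 10683 genes, as a description, since the classes share libraries and free RNA. Closest to Gpihbp1 in DMSO was Cd300lg (0.985, and 0.976 in MVC), and closest to Fabp4 was Adgrf5 (0.975 and 0.986). Cd36 was closest to Pparg (0.907 and 0.897). Tcf15 was closest to Kcna5 (0.944 and 0.946) and Meox2 to Igfbp7 (0.933 and 0.904). The closest genes to Lpl, Fabp5 and Pparg in DMSO, Anxa3 (0.861), Gm49774 (0.835) and Stx12 (0.916), had 0.404, 0.554 and 0.677 in MVC. Among the members themselves, Gpihbp1 with Fabp4 was the most alike (0.917 and 0.948), and Meox2 with Fabp5 the least (0.194 and 0.193) in DMSO.

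Cells left without a name held the members too. A shallow cluster led by Fut2 and Mrnip, with 5 of 9 EC markers raised and 69 DMSO and 226 MVC cells, had 459 CPM of Lpl in DMSO and 91.8 CPM in MVC, and 4237 and 1657 CPM of Fabp4. Another led by Rgs5 and Rpl36, with 119 and 68 cells, had 680 and 387 CPM of Lpl, and 20798 and 13703 CPM of Fabp4. Lpl and Fabp4 were lower in MVC in both. In the barcodes that the cell filter removed, 375 in DMSO and 593 in MVC, Fabp4 stood at 9319 and 1961 CPM.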

How the data were processed

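The deposited values are raw UMI counts per gene and cell barcode, which the authors made with Cell Ranger 7.0.0 against mm10 per the labels' processing notes; whether intronic reads were counted, and the annotation release, are not given in the sources used here. The authors' later normalisation and integration (Seurat 5.0.1) were not used. The cell filter was the one the study's methods state, and it left 5437 of 5812 and 5454 of 6047 barcodes. UMI counts were log-normalised, 2000 variable genes without the 8 genes, the list genes and mitochondrial and sex-linked genes gave 30 principal components, and a 20-nearest-neighbour graph was clustered (leidenalg 0.10.2, resolution 1.0); blood ECs were clustered again (20 components, resolution 0.8). Names needed 3 raised markers. Flt1 and Hey1 are both list genes and markers. Doublets were scored from simulated ones and kept. Levels are UMIs summed over a class, per 1000000 UMIs. Intervals are Poisson for levels, Clopper-Pearson for shares and exact conditional binomial for ratios, at 95%. Ratios and calls were run on simulated Poisson counts, the model that the intervals assume. Such a run cannot show the spread between cells or mice. List genes named in the text are those past 1.5-fold with at least 20 UMIs over both libraries, up to 15 by size. The 8 genes and the lists were chosen with earlier results of these data known. Gene positions are from GENCODE M21. Alternatives were doublet removal, a stricter cell filter, other clustering genes, centring by library, thinning, mean CPM per cell, median-ratio scaling and other UMI minima.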

Additional observations from a re-analysis of the deposited data

Results flagged for a closer look

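Some class ratios with at least 20 UMIs went the other way from the capillary class for the same gene, with intervals on opposite sides of 1. Each rests on 1 library per group, and the difference was not tested. Gpihbp1 was 2.46 times as high in MVC in pericyte-like cells, from 20 and 36 UMIs, of which 3 cells gave 50% and 44.4%, and 2.46 times as high in tenocyte-like cells, from 14 and 36 UMIs. Cd36 was 1.92 times as high in lymphatic EC-like cells, from 135 to 259 CPM, with 66.7% and 73.9% of UMIs in 3 cells. Lpl was 1.58 times as high in MuSC-like cells (muscle stem cells), from 48 and 128 UMIs, of which 3 cells gave 60.4% and 21.9%. Fabp5 was 1.43 times as high in FAP-like cells, at 4.70 and 6.72 CPM, where B cell-like cells had 0.842 and 11.7 CPM from 1 and 8 UMIs. Tcf15 had a ratio of 0.567 in pericyte-like cells, from 222 and 92 UMIs.

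Classes that should hold little of these genes were among them. In T/NK-like cells the ratio was 8.51 for Gpihbp1 (6 and 15 UMIs), 2.72 for Lpl (30 and 24 UMIs), 1.995 for Cd36 (162 and 95 UMIs) and 1.89 for Fabp4 (696 and 386 UMIs). There 3 cells gave between 57.9% and 83.3% of each gene's UMIs, and 7.69% of DMSO and 11.5% of MVC cells were called doublets. In Schwann-like cells the ratio was 9.01 for Cd36 (4 and 42 UMIs) and 3.5 for Fabp4 (25 and 102 UMIs, with 36% and 76.5% in 3 cells). In B cell-like cells it was 1.29 for Fabp4 (183 and 136 UMIs).

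Tcf15 also had a ratio of 1.91 in the unnamed cluster led by Rgs5 and Rpl36, cells used in no comparison, from 37 UMIs in each library.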

How the results depend on the processing

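Over 64 ratios of the 8 genes in capillary cells under alternative settings, 46 moved by less than counting error, 18 moved by more, 0 turned beyond it, and 60 kept their sign. Thinning gave log2 ratios of -0.29 for Gpihbp1, -1.30 for Lpl, -0.84 for Cd36, -0.71 for Fabp4 and 0.65 for Tcf15. Median-ratio scaling gave -1.46 for Lpl, -0.88 for Cd36 and -0.80 for Fabp4, and centring by library gave -0.84 for Cd36 and -0.79 for Fabp4. Giving each capillary cluster the same share in both libraries, a setting chosen after seeing the data, gave -0.55 for Gpihbp1, -1.56 for Lpl, -0.96 for Cd36, -0.76 for Fabp4, -0.30 for Fabp5, -0.19 for Pparg, -0.43 for Meox2 and 0.33 for Tcf15. The number of the 8 genes higher by 1.5-fold in capillary cells went from 0 to 1 with thinning and with mean CPM per cell, and the number lower stayed at 3.

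In arterial cells 0 higher became 2 with centring and 1 with thinning or mean CPM. Without doublets, venous cells had 1 higher and 1 lower, FAP-like cells 1 lower and macrophage-like cells 1 higher. FAP-like cells had 4 higher with thinning, 3 with mean CPM and 0 with median-ratio scaling. Of the list genes in capillary cells, 4 were higher at a minimum of 100 UMIs and 5 with median-ratio scaling, and 7 were lower at a minimum of 1 UMI. Of 279 ratios in other classes 236 moved by less than counting error and 2 turned, Pparg in arterial cells to -0.31 with centring and Lpl in venous cells to 0.80 without doublets. The causes were not tested. No paired analysis was possible because each group has 1 library, and for the same reason no replicate could be left out. Depth limits Fabp5, Pparg, Meox2 and Tcf15, whose capillary counts lie between 576 and 1588 UMIs per library.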
